A study of Mus musculus with 9 samples.

Results

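The genes examined here encode the TGF-β ligands, their receptors, 2 intracellular regulators of the pathway, an activin subunit and a target gene. They were chosen by symbol from the deposited table of gene counts, in which 10 of 24421 rows carry the names *Tgfb1*, *Tgfb2*, *Tgfb3*, *Tgfbr1*, *Tgfbr2*, *Tgfbr3*, *Smad7*, *Skil*, *Inhba* and *Tgfbi*. The rule used the symbols alone, and all 10 passed the filter on low counts in both comparisons. These symbols, and the further lists and tests below, were chosen with earlier results of these data known.

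TGF-β is secreted in a latent form, bound to its own propeptide and to carrier proteins, and is released by integrins, thrombospondin and proteases. The active dimer brings together the type II receptor TGFBR2 and the type I receptor TGFBR1, which phosphorylates SMAD2 and SMAD3, and these enter the nucleus with SMAD4 and bind DNA at CAGA sequences. The pathway is known for driving matrix production by mesenchymal cells and for restraining T cells and NK cells, and TGF-β2 was first purified as a T cell suppressor factor from glioblastoma.

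RNA sequencing was available for 3 libraries of control mice, 3 of mice given BAL101553 and 3 labelled astrocytes, all from brain of C57BL/6 mice. SB28, a murine glioma line expressing GFP and luciferase, was implanted in the brain of mice aged 6 to 8 weeks, and BAL101553 (lisavanbulin) is an oral prodrug that activates the spindle assembly checkpoint. According to the methods, SB28 cells were sorted as CD45-CD11b-GFP+, whereas the labels call the control and BAL101553 material whole tissue. Tumors were taken at day 21 in controls, and at day 33 or day 35, since both are given, after BAL101553, so that treatment and time of growth cannot be told apart. The labels give BAL101553 as the treatment of the astrocyte libraries too, and their day of harvest, sort and mouse age were not given in the sources used here. All groups come from the same strain, the tumor groups share 1 cell line, and no library of astrocytes from untreated mice was used here.

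Between 22919523 and 34013875 reads were counted per library, and levels are given as CPM, the count of a gene scaled to a fixed library total, adjusted by TMM (edgeR's trimmed mean scaling) over the 9 libraries. The labels do not say that replicates came from separate mice, so p-values measure the spread between these libraries, which may be technical in part. The labelled cell types were compared with defining markers. In the tumor libraries, *Ptprc* (CD45) and *Itgam* (CD11b), the genes of the sort, lay at or under 0.445 CPM, and *Aqp4* of astrocytes at or under 0.210 CPM. The 12 markers of microglia and macrophages summed to between 163 and 295 CPM in the controls and between 316 and 390 CPM after BAL101553, most of it *Tmem119*, and the 7 astrocyte markers to between 940 and 971 CPM and between 681 and 797 CPM, most of it *Gja1*. In the astrocyte libraries, 7 astrocyte markers summed to between 11785 and 14508 CPM, but 6 oligodendrocyte markers summed to between 10282 and 12723 CPM, and 12 markers of microglia and macrophages to 542, 1160 and 840 CPM in astrocytes 1, 2 and 3. Markers of endothelium summed to between 181 and 210 CPM in these libraries, and those of pericytes and fibroblasts to between 466 and 551 CPM. The astrocyte libraries are therefore called by their label without a claim that they hold 1 cell type. In such bulk samples, fewer cells of a type and less RNA per cell cannot be told apart.

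Promoters of the pathway are shown for 2 ligand genes whose levels differed in opposite directions between the BAL101553 and astrocyte libraries, *Tgfb1* and *Tgfb2*, and for the target gene *Tgfbi*. The sequences are RefSeq promoter windows on GRCm38.p6, cut to the 250 bases before the start and at the first annotated transcript. Such windows were examined for 6 of the 10 genes, and not for *Tgfb3*, *Tgfbr3*, *Smad7* and *Skil*. Capitals mark CAGAC on either strand (GTCTG on the reverse strand), which is the CAGA core bound by SMAD3 and SMAD4. They read 5′ to 3′ on the strand of the gene.

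*Tgfb1* (chr7:25686752-25687001, plus strand): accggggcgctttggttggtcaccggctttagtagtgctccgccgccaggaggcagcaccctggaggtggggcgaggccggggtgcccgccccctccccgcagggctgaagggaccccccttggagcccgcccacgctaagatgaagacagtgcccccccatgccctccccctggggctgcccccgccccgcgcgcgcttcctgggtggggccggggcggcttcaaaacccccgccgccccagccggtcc

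*Tgfb2* (chr1:186705990-186706239, minus strand): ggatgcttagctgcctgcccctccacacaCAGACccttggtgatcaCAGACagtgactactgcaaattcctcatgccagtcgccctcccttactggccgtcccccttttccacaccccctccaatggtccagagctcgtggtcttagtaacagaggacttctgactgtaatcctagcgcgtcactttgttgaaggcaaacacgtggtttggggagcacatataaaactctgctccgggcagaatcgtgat

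*Tgfbi* (chr13:56609336-56609522, plus strand): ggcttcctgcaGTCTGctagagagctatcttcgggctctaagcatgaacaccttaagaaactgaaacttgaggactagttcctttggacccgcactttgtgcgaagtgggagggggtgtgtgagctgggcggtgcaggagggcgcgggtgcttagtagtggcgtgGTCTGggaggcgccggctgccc

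The *Tgfb1* window held 0 matches of CAGAC and 75.2% G and C, the *Tgfb2* window 2 matches and 53.6%, and the *Tgfbi* window 2 matches and 62.4%. These values cover 250 bases, of which 187 are printed for *Tgfbi*. Among the others, *Tgfbr2* held 1 match, *Inhba* 0, and the 2 starts of *Tgfbr1* 0 and 1. The letters are common, since 42.2% of 32851 such windows of 250 bases hold CAGAC on either strand. The palindrome GTCTAGAC was found in 0.167% of windows and the AP-1 motif TGANTCA in 6.75%, and neither was found in the windows of these 6 genes. A match describes the sequence and does not show binding.

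The first comparison asks how the pathway genes of SB28 cells differ between BAL101553-treated and control mice. *Tgfb3*, a TGF-β isoform of mesenchymal tissue and palate fusion, and *Tgfbr3*, which encodes the co-receptor betaglycan that presents TGF-β2 to TGFBR2, were higher after BAL101553. None of the 10 genes was called lower. A gene was called at an adjusted p under 0.05 in the quasi-likelihood test of edgeR. The p-values were adjusted by Benjamini and Hochberg's method across all genes tested in a comparison. In this way 2 of 10 genes were called, both higher, where 14.7% of all 12633 genes tested were called in either direction, 8.64% higher and 6.09% lower. The groups did not overlap for 4 genes that were higher (*Tgfb3*, *Tgfbr1*, *Tgfbr3* and *Tgfbi*) and 1 that was lower (*Tgfb1*), where 20.6% of all genes lay wholly higher and 19.1% wholly lower. The median log2 fold change of the 10 genes was 0.25, against 0.016 over all genes tested.

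**Figure D1:**
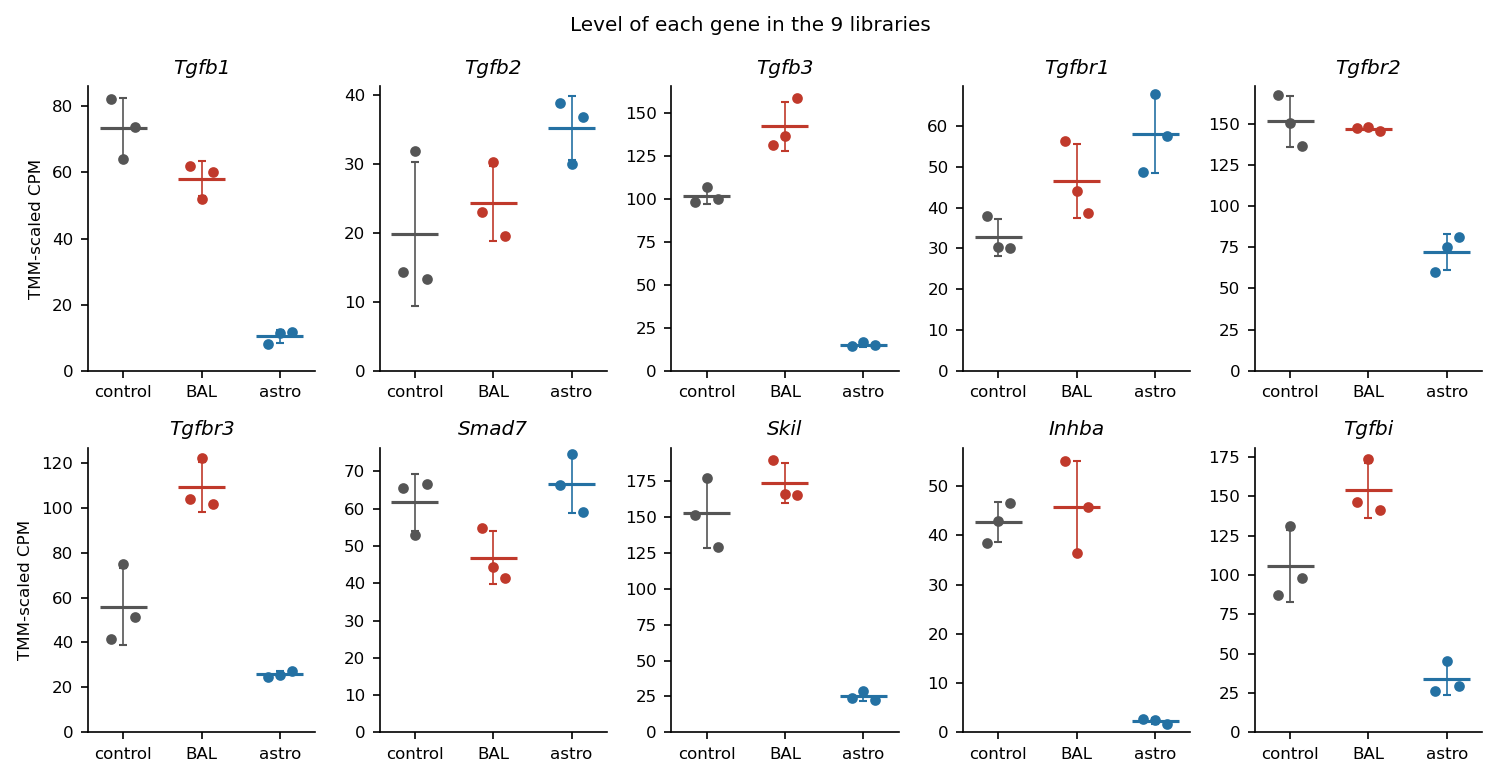
TMM-scaled CPM (linear axis from 0) of the 10 genes in control, BAL101553 (BAL) and astrocyte (astro) libraries. Points are libraries, the horizontal line is the mean and the bar the SD of 3 libraries. The 3 BAL101553 points of *Tgfb3* and of *Tgfbr3* lie above the 3 control points, and the astrocyte points of 7 genes lie far below both tumor groups.

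Of the ligands, *Tgfb3* (chromosome 12, 86056745 to 86079041, minus strand, GRCm38) had 98.2, 107 and 99.7 CPM in control 1, 2 and 3 and 131, 137 and 158 CPM in BAL101553 1, 2 and 3. Every BAL101553 library lay above every control library. The log2 fold change was 0.49 (standard error 0.10, adjusted p = 0.0194). *Tgfb3* lies opposite to *Ttll5*, whose exons it does not share. Its exons overlap those of *Gm37804* and *Gm48008* on the opposite strand, neither of which is among the genes counted. The exons of *Tgfbr3* overlap those of *Gm43422* on the same strand, which is not among them either.

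*Tgfb1* (chromosome 7, 25687002 to 25705077, plus strand), is the isoform of immune cells and platelets. It had 82.2, 64.2 and 73.7 CPM in the controls and 62.0, 52.0 and 60.1 CPM after BAL101553. The ranges did not overlap, with control 2 only slightly above BAL101553 1, and the log2 fold change of -0.33 (standard error 0.12) had an adjusted p of 0.0970. *Tgfb2* (chromosome 1, 186622792 to 186705989, minus strand) had 14.3, 31.9 and 13.3 CPM in the controls and 23.1, 30.3 and 19.6 CPM after BAL101553. Control 2 was higher than every treated library for this gene, and the difference of 0.30 (log2, standard error 0.34) was within the spread (adjusted p = 0.565).

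Of the receptors, *Tgfbr3* (chromosome 5, 107106570 to 107289629, minus strand) had 41.6, 74.7 and 51.4 CPM in the controls and 104, 122 and 102 CPM after BAL101553. Control 2 was again the highest control and still lay below all 3 treated libraries. This was the largest difference among the 10 genes, 0.97 in log2 units with a standard error of 0.20 (adjusted p = 0.0223). *Tgfbr1* (chromosome 4, 47353222 to 47414931, plus strand), the signaling type I receptor, had 38.0, 30.4 and 30.01 CPM in the controls and 56.5, 44.2 and 38.8 CPM after treatment. The lowest treated library lay just above the highest control, and the log2 fold change of 0.51 (standard error 0.17) missed the threshold (adjusted p = 0.0744). The ligand-binding receptor *Tgfbr2* (chromosome 9, 116084293 to 116175360, minus strand) had 167, 150 and 136 CPM in the controls and 147, 148 and 146 CPM after treatment. Its treated libraries lay inside the control range (log2 fold change -0.038, standard error 0.10, adjusted p = 0.811).

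Both calls depended on single libraries. *Tgfb3* and *Tgfbr3* were called under all 9 other settings of test, scaling, filter or design, but *Tgfb3* lost its call without control 1 (adjusted p = 0.0700), control 3 (0.0859) or BAL101553 3 (0.0525), and *Tgfbr3* likewise without control 1 (0.0581), control 3 (0.0908) or BAL101553 3 (0.0534). Their log2 fold changes stayed between 0.39 and 0.58 and between 0.71 and 1.28 over all 24 alternatives.

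None of the regulators and targets among the 10 genes was called. *Smad7*, the inhibitory SMAD that is itself induced by TGF-β, had 65.5, 52.8 and 66.6 CPM in the controls and 54.8, 44.5 and 41.4 CPM after BAL101553. Control 2 fell inside the treated range, and the log2 fold change was -0.39 (standard error 0.14, adjusted p = 0.0974). *Skil* (chromosome 3, 31095058 to 31122577, plus strand) encodes the SMAD corepressor SnoN. It had 151, 177 and 129 CPM in the controls and 190, 166 and 165 CPM after treatment, which overlap (log2 fold change 0.19, standard error 0.13, adjusted p = 0.323).

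*Inhba* (chromosome 13, 16011851 to 16031621, plus strand) encodes the βA subunit of activin A, which signals through the same SMADs by other receptors. It had 38.4, 42.9 and 46.6 CPM in the controls and 55.1, 36.4 and 45.7 CPM after treatment, and the control libraries lay within the treated range (log2 fold change 0.11, standard error 0.16, adjusted p = 0.660). *Tgfbi* (chromosome 13, 56609523 to 56639562, plus strand) encodes a secreted matrix protein first cloned as a TGF-β-induced gene. Its levels were 87.4, 131 and 97.9 CPM in the controls and 147, 173 and 141 CPM after treatment. All treated libraries were above all controls, the highest being control 2, and the log2 fold change of 0.55 (standard error 0.16) fell just short of the threshold (adjusted p = 0.0547). *Tgfbi* was called under 6 of the 9 other settings, with a lowest adjusted p of 0.0129 in DESeq2's Wald test, and without control 2 (adjusted p = 0.0287).

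**Figure D2:**
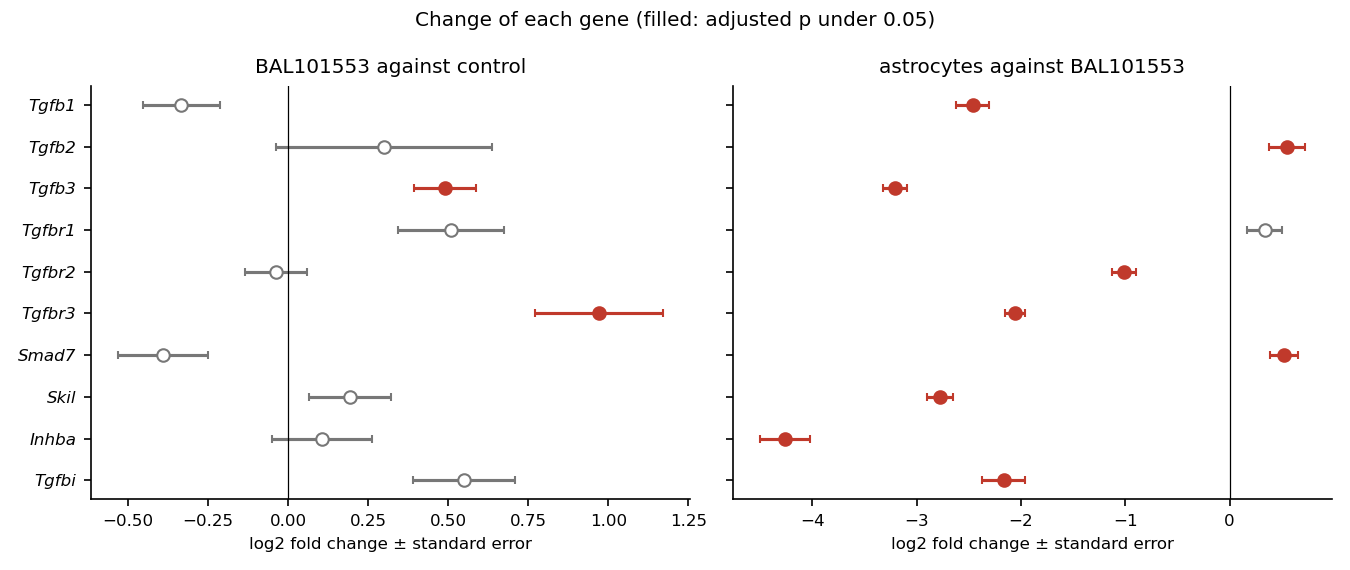
Log2 fold change of each gene with its standard error in both comparisons. Filled red points are genes with an adjusted p under 0.05. After BAL101553 only *Tgfb3* and *Tgfbr3* are filled, and against BAL101553 the astrocyte libraries show 7 filled points below 0 and 2 above 0.

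The 3 ligands were also read as shares of their summed level, with each level divided by the length of the gene's exons so that genes can be compared. *Tgfb3* made up 60.7%, 63.4% and 63.5% of the ligand level in the control libraries and 70.4%, 72.2% and 75.4% after BAL101553, or 62.5% ± 1.57 against 72.7% ± 2.50 (SD, n = 3). *Tgfb1* made up 34.1%, 25.6% and 31.5% in the controls and 22.3%, 18.4% and 19.2% after treatment. Neither share overlapped between the groups. Each difference had an exact permutation p of 0.1, two-sided, the smallest that 3 against 3 libraries allow, and 0.12 after adjustment over the 6 shares tested. The share of *Tgfb2*, 7.07% ± 3.46 in the controls and 7.35% ± 1.94 after treatment, overlapped (exact permutation p = 0.8, adjusted p = 0.8).

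**Figure D3:**
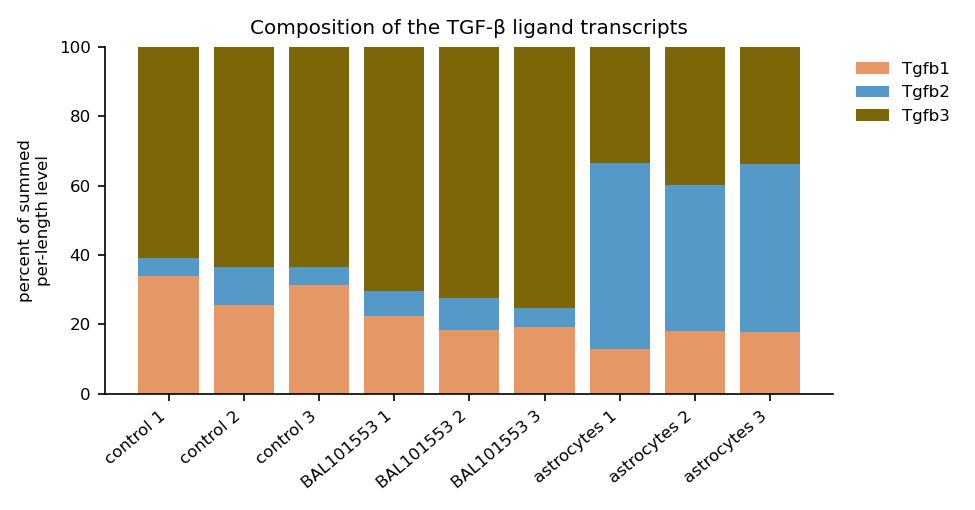
Share of each TGF-β ligand in the summed per-length level of the 3 ligands, in percent, 1 bar per library. *Tgfb3* holds between 60.7% and 75.4% of the bar in the 6 tumor libraries and between 33.5% and 39.8% in the astrocyte libraries, where *Tgfb2* holds between 42.0% and 53.5%.

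Around the 10 genes, 49 further genes of the pathway were followed in groups by role. After BAL101553, 4 were called higher and 6 lower of the 45 that passed the filter, 22.2% against 14.7% of all genes tested, with a median log2 fold change of -0.045. None of 7 further receptors was called, and the lowest adjusted p among them was that of *Acvrl1*, the type I receptor ALK1 of endothelium, with 149, 60.4 and 77.5 CPM in the controls and 55.0, 27.9 and 71.8 CPM after treatment (log2 fold change -0.89, standard error 0.40, adjusted p = 0.165).

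Of 7 genes of latency and activation, 1 was higher and 1 lower. *Lrrc32* encodes GARP, which tethers latent TGF-β to the cell surface. Its level was 2.69, 3.49 and 4.21 CPM in the controls and 11.7, 32.95 and 13.9 CPM after BAL101553, with BAL101553 2 far above the others. The log2 fold change was 2.50 (standard error 0.41, adjusted p = 0.0133), 1.89 without BAL101553 2 (adjusted p = 0.00887), and the call was lost without control 1 (0.0513) or control 3 (0.0560). *Thbs1* encodes thrombospondin 1, an activator of latent TGF-β, and fell from 1561, 1805 and 1837 CPM in the controls to 1225, 1176 and 1117 CPM, without overlap. Its log2 fold change was -0.56 (standard error 0.10, adjusted p = 0.0160), and it was not called without control 3 (0.0734) or BAL101553 3 (0.0534), nor in a model of all 9 libraries (0.173).

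Of 12 SMAD genes and their regulators, 1 was called. *Smad3*, which carries the signal to DNA, had 123, 126 and 131 CPM in the controls and 83.1, 63.7 and 99.3 CPM after BAL101553. All treated libraries lay lower, by -0.62 in log2 units with a standard error of 0.15 (adjusted p = 0.0331). The call was lost without BAL101553 1 (0.0731), control 1 (0.0817), control 2 (0.0659) or control 3 (0.112), and with scaling by library totals (0.0652). On the activin side, none of 3 genes was called, and the activin-binding antagonist *Fst* had 12.2, 5.42 and 6.57 CPM in the controls and 24.0, 21.03 and 9.22 CPM after treatment (log2 fold change 1.17, standard error 0.41, adjusted p = 0.0906).

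The 16 target genes split in direction, with 3 called higher and 4 lower, where 8.64% of all genes tested were called higher and 6.09% lower, and their median log2 fold change was 0.054. Of these 16, between 5 and 7 were called under other settings and between 0 and 7 when fits without 1 or 2 libraries are included. *Postn* encodes periostin, a matrix protein that binds integrins, and had 15.8, 28.6 and 21.3 CPM in the controls and 143, 334 and 134 CPM after BAL101553. Each treated library lay several-fold above each control, BAL101553 2 farthest (log2 fold change 3.22, standard error 0.40, adjusted p = 0.00728), and the call held in each of the 6 fits without 1 library. The fibrillar collagen gene *Col3a1* had 2288, 3176 and 3143 CPM in the controls and 5879, 4476 and 5548 CPM after treatment (log2 fold change 0.89, standard error 0.16, adjusted p = 0.0159), and was not called without BAL101553 3 (0.0502) or control 3 (0.0604).

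*Timp1*, an inhibitor of matrix metalloproteases, went the other way, from 1904, 1173 and 1394 CPM to 775, 726 and 640 CPM. The log2 fold change was -1.06 (standard error 0.18, adjusted p = 0.0141), and the call was lost without BAL101553 3 (0.0504) or control 3 (0.0560). The other called targets, named after their values were seen, were the collagen gene *Col1a1*, higher by a log2 fold change of 0.49, and *Acta2* (smooth muscle actin), *Ctgf* and *Tgfb1i1*, lower by log2 fold changes of -0.74, -0.61 and -0.57. *Tgfb1i1* passed the threshold by a small margin (adjusted p = 0.04998). The target *Pmepa1*, whose product restrains SMAD signaling, had a log2 fold change of -0.35 with an adjusted p of 0.217, and was likewise named after its values were seen. Markers of pericytes and fibroblasts summed to between 389 and 475 CPM in the controls and between 672 and 726 CPM after BAL101553, most of it from *Pdgfra* and *Pdgfrb*, which were called higher. Within this list *Dcn* was also called higher (log2 fold change 2.11, adjusted p = 0.0148). The pericyte gene *Rgs5* was called lower (-2.36, adjusted p = 0.0371), from 3.95, 2.35 and 7.07 CPM to 1.44, 0.276 and 0.854 CPM. *Abcc9* and *Kcnj8* had at most 3 counts in any tumor library. *Lum* had 4.46 CPM in BAL101553 2 and at most 0.404 CPM in any other tumor library. Markers of endothelium summed to between 740 and 868 CPM in the controls and between 516 and 647 CPM after BAL101553, most of it *Cdh5*. *Cdh5* was called lower (log2 fold change -0.52, adjusted p = 0.0195), and none of *Cldn5*, *Pecam1*, *Flt1*, *Tek* and *Kdr* was called. *Cldn5* and *Pecam1* had at most 1.48 and 1.21 CPM in any tumor library. The part of these markers, and of *Tmem119* and *Gja1*, in the differences after BAL101553 was not tested.

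**Figure D4:**
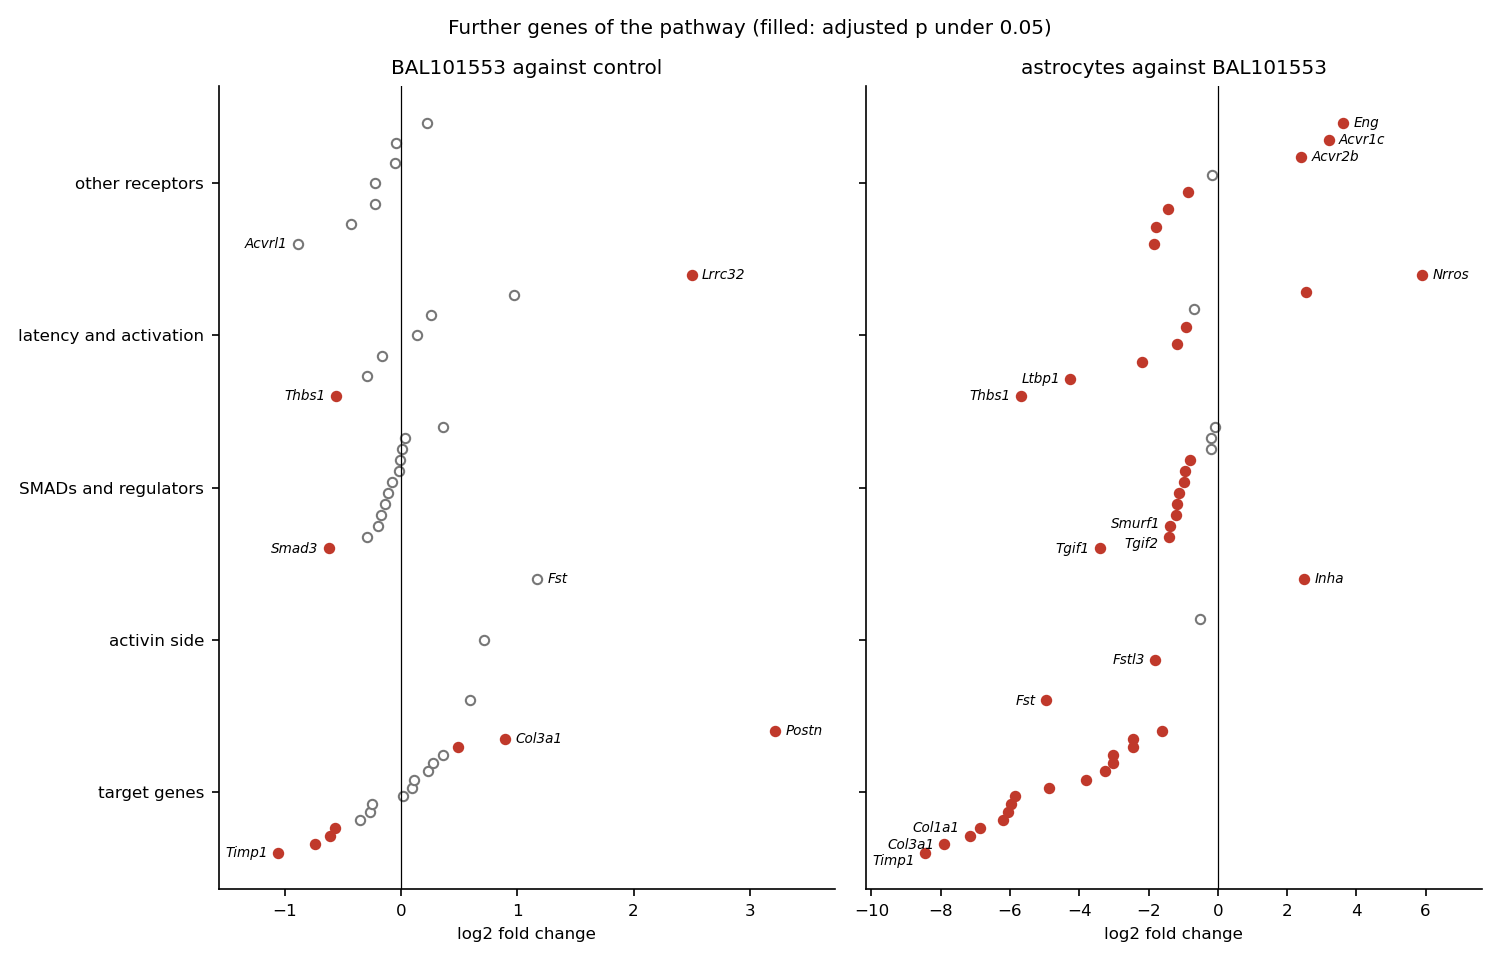
Log2 fold change of the further pathway genes by group, with an adjusted p under 0.05 filled in red and the genes chosen for description named. After BAL101553 the called target genes lie on both sides of 0, from -1.06 for *Timp1* to 3.22 for *Postn*, and in astrocyte against BAL101553 libraries all 16 targets lie below 0.

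The second comparison sets the astrocyte libraries against the SB28 cells of BAL101553-treated mice, the group with the same labelled treatment. Ligand, receptor and target genes were mostly lower in the astrocyte libraries, apart from *Tgfb2*, *Smad7* and *Tgfbr1*. Of the 10 genes, 7 were called lower and 2 higher, where 85.1% of 15314 genes tested were called, 38.9% lower and 46.3% higher. The groups did not overlap for the same 9 genes, where 39.9% of all genes lay wholly lower and 47.9% wholly higher. The median log2 fold change of the 10 genes was -2.11, against 0.18 over all genes tested, a median that was 0.39 with scaling by library totals. The 2 comparisons share the BAL101553 libraries.

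Of the ligands, *Tgfb3* had 14.2, 16.6 and 14.9 CPM in astrocytes 1, 2 and 3, below all 6 tumor libraries (log2 fold change -3.20, standard error 0.11, adjusted p = 1.05e-07). *Tgfb1* had 8.23, 11.3 and 11.8 CPM, also below every tumor library (log2 fold change -2.46, standard error 0.16, adjusted p = 2.25e-06). *Tgfb2* had 38.8, 30.01 and 36.8 CPM. It was the only ligand that was called higher, by 0.55 in log2 units with a standard error of 0.17 (adjusted p = 0.0152). The groups did not overlap when scaled within this comparison, whereas with all 9 libraries scaled together astrocytes 2 lay just below BAL101553 2. Its call was lost without astrocytes 1 (0.0572) or BAL101553 1 (0.0618) and in a model of all 9 libraries (0.0928).

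By share, *Tgfb2* made up 53.5%, 42.0% and 48.5% of the summed ligand level in the astrocyte libraries, or 48.0% ± 5.75 (SD, n = 3), and *Tgfb3* 33.5%, 39.8% and 33.7%. By exon length, the leading ligand gene was *Tgfb2* in all 3 astrocyte libraries and *Tgfb3* in all 6 tumor libraries. *Tgfb1* has 5042 bases of exon but 2573 in its longest transcript, and *Tgfb3* has 3383 by both. With the longest transcript as length, *Tgfb1* lay above *Tgfb3* in control 1. The difference in the share of *Tgfb2* from the BAL101553 libraries was 40.6 percentage points, that of *Tgfb3* -37.0 and that of *Tgfb1* -3.64, each with an exact permutation p of 0.1 and 0.12 after adjustment. The *Tgfb1* share, 13.0%, 18.2% and 17.8%, came close to that of BAL101553 2, and its difference was -1.98 without astrocytes 1.

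Of the receptors, *Tgfbr3* had 24.6, 25.6 and 27.5 CPM in the astrocyte libraries and *Tgfbr2* 60.2, 75.3 and 80.9 CPM, both below every tumor library. Their log2 fold changes were -2.06 (standard error 0.10, adjusted p = 3.59e-07) and -1.01 (standard error 0.12, adjusted p = 6.25e-05). *Tgfbr1*, with 48.7, 67.8 and 57.6 CPM, overlapped the BAL101553 range (log2 fold change 0.34, standard error 0.17, adjusted p = 0.0984). It was called higher without astrocytes 1 (0.0463) or BAL101553 1 (0.0247), with library totals (0.0148), with upper quartile scaling (0.0187) and among genes with at least 10 counts in every library (0.0154). In the 3 astrocyte libraries its level had the same order as the summed microglia and macrophage markers, whose part was not tested.

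Of the regulators, *Smad7* had 66.2, 74.6 and 59.0 CPM and was higher than in all BAL101553 libraries (log2 fold change 0.52, standard error 0.14, adjusted p = 0.00683), a call that held in each of the 6 fits without 1 library. Its astrocyte values lay close to those of the control tumors, a pair of groups that was not tested. *Skil* had 24.1, 28.7 and 22.5 CPM, far below the tumor libraries (log2 fold change -2.77, standard error 0.12, adjusted p = 2.86e-07). The activin gene *Inhba* showed the largest difference, with 2.77, 2.55 and 1.70 CPM, or -4.26 in log2 units with a standard error of 0.24 (adjusted p = 9.63e-07). *Tgfbi* had 26.6, 45.4 and 29.5 CPM, with astrocytes 2 the highest and still below the tumor libraries (log2 fold change -2.17, standard error 0.20, adjusted p = 1.99e-05). As for *Tgfb3* and *Tgfbr1*, this order was that of the summed microglia and macrophage markers, and the part of these markers was not tested.

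Of the 48 further pathway genes tested, 36 were called lower and 6 higher, together 87.5% against 85.1% of all genes tested, of which 38.9% were lower and 46.3% higher. Their median log2 fold change was -1.51. The 16 target genes were all lower, with a median of -5.37 on the log2 scale. *Timp1* had 1.14, 1.17 and 3.89 CPM (log2 fold change -8.45), *Col3a1* 17.9, 19.7 and 28.6 CPM (-7.89) and *Col1a1* 35.6, 35.2 and 49.3 CPM (-7.15). These genes also mark mesenchymal cells and matrix production in general, whatever the ligand.

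Among 8 further receptors, 3 were higher and 4 lower. *Eng*, the co-receptor endoglin, had 39.2, 47.4 and 44.7 CPM in the astrocyte libraries. It had 3.93, 2.92 and 3.86 CPM in the BAL101553 libraries (log2 fold change 3.62, standard error 0.16, adjusted p = 2.94e-07). Of the 6 endothelial markers, *Cldn5*, *Pecam1*, *Tek* and *Kdr* were also called higher in the astrocyte libraries. *Cdh5* was called lower and *Flt1* was not called, and the part of these markers was not tested. The activin receptor genes *Acvr1c* and *Acvr2b* were higher by log2 fold changes of 3.20 and 2.41 at low levels, up to 1.92 and 3.21 CPM. Of 8 genes of latency and activation, 2 were higher and 5 lower. *Nrros*, which tethers latent TGF-β1 on microglia and macrophages, had 12.8, 19.2 and 19.0 CPM against 0.308, 0.237 and 0.295 CPM (log2 fold change 5.91, standard error 0.27, adjusted p = 3.57e-07). The markers of microglia and macrophages were also highest in astrocytes 2 and lowest in astrocytes 1, and their part was not tested. *Thbs1* had 15.5, 36.4 and 15.6 CPM (-5.69) and *Ltbp1*, a latent TGF-β carrier, 43.7, 34.2 and 35.9 CPM (-4.26).

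Of the 12 SMAD genes and regulators, 9 were lower and none was higher. The largest differences were those of the SMAD corepressor genes *Tgif1* (log2 fold change -3.41) and *Tgif2* (-1.41) and of the ubiquitin ligase gene *Smurf1* (-1.37). On the activin side, *Fst* had 0.956, 0.345 and 0.377 CPM (-4.95) and *Fstl3*, a related antagonist, 1.51, 1.48 and 1.17 CPM (-1.80), and both were lower. *Inha*, the inhibin subunit, was called higher by 2.49 (adjusted p = 0.0270) with at most 2.15 CPM. BAL101553 2 alone among the treated libraries had 0.986 CPM of it, and the log2 fold change was 4.85 without that library (adjusted p = 0.000162), while the call was lost without BAL101553 3 (0.0830) or without astrocytes 1, 2 or 3 (0.0550, 0.0526 and 0.0750).

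Per kilobase of exon, the levels of the 10 genes can be set in order within a group. The order depends on this length, and *Tgfb1* has 5042 bases of exon but 2573 in its longest transcript. In control libraries *Tgfb3* (30.01 ± 1.33 CPM per kb, SD, n = 3) and *Tgfbi* (28.0 ± 6.08) stood highest, with ranges that overlapped. *Tgfbr2* (18.5 ± 1.90), *Skil* (15.7 ± 2.50), *Tgfb1* (14.6 ± 1.79) and *Smad7* (13.6 ± 1.69) followed, each overlapping its neighbour. Below a gap came *Tgfbr3* (8.54 ± 2.60) and *Inhba* (6.67 ± 0.639), which overlapped, and below another *Tgfbr1* (5.02 ± 0.691) and *Tgfb2* (3.43 ± 1.80), which overlapped too.

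After BAL101553, *Tgfbr3* (16.7 ± 1.69 CPM per kb) stood beside *Skil* (17.9 ± 1.45) and *Tgfbr2* (17.95 ± 0.130), apart from *Tgfb1* (11.5 ± 1.05) below it. With the longest transcript as length, *Tgfb1* lay above *Tgfbr3* in all of these libraries, so this order rests on exon length. *Tgfb3* (42.0 ± 4.25) and *Tgfbi* (40.8 ± 4.60) remained first without separation between them. In the astrocyte libraries the order was headed by *Smad7* (14.7 ± 1.73), apart from *Tgfbi* (8.97 ± 2.69), *Tgfbr1* (8.88 ± 1.47) and *Tgfbr2* (8.81 ± 1.31), which overlapped. *Tgfb2* (6.08 ± 0.797) lay above *Tgfb3* (4.51 ± 0.366) without overlap, and *Inhba* (0.366 ± 0.0889) came last.

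**Figure D5:**
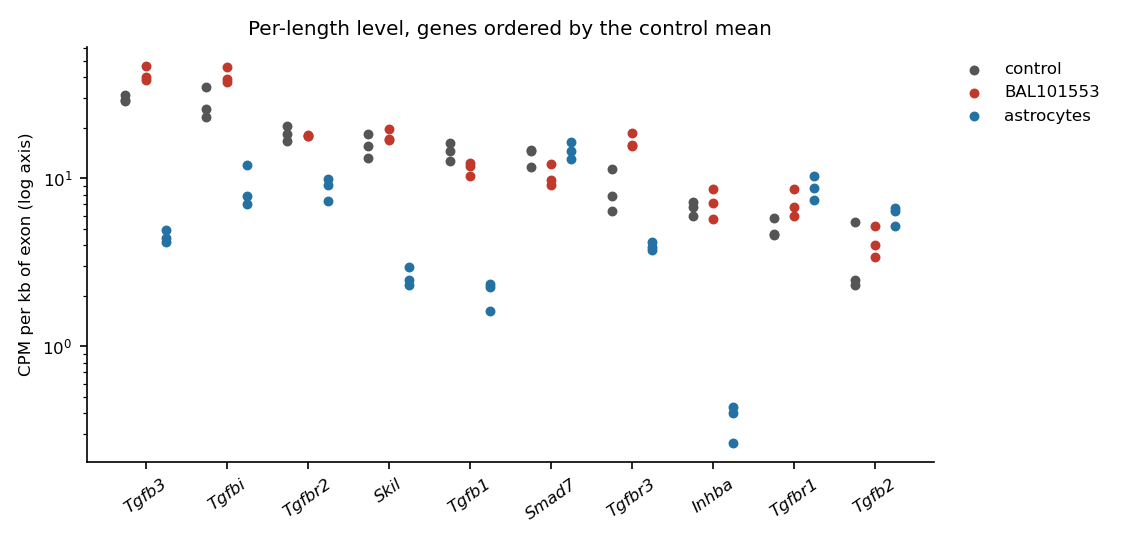
Level per kilobase of exon of each gene in each library on a log axis, genes ordered by their mean in the control libraries. Each point is 1 library. The astrocyte points lie below the tumor points for most genes, with *Inhba* the lowest, and above the BAL101553 points for *Smad7*.

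For each ligand gene, the genes most alike in level over the 9 libraries were sought among 15407 genes by Pearson's r of log2 CPM. The points were 6 tumor and 3 astrocyte libraries, so r includes the difference between them. Likeness within a group was not tested. For *Tgfb1* they were *AA467197* and *Rnf19b* (both r = 0.998), for *Tgfb3* *Cdk6* and *Kank2* (both r = 0.998), and for *Tgfb2* *Tulp1* (r = 0.923) and *Kcnk3* (r = 0.919), of which *Tulp1* reached only 1.28 CPM on average in the astrocyte libraries.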

How the data were processed

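RNA was sequenced by the authors from 9 libraries. A stranded protocol, 50-base reads and mapping with TopHat are given in the methods, and mm10 and HTSeq 0.6.1 in the submitters' processing notes. The methods name both HTSeq and featureCounts, and the counter that made the table, the annotation and the strand setting are not given in the sources used here. The table that the authors deposited holds raw read counts for each gene. The study's methods state 2 samples per group, the labels give 3, and the study's data statement names another deposit.

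Groups were taken from the labels. The analysis used R 4.3.3 and edgeR 4.0.16 (filterByExpr, TMM scaling, and the quasi-likelihood test on the 2 groups compared, two-sided). Benjamini-Hochberg adjustment covered every gene tested, with a threshold of 0.05. A standard error is the log2 fold change over the square root of F. Levels are CPM scaled by TMM over 9 libraries, and log2 CPM used a prior count of 2. Between 22919523 and 34013875 counts per library make counting error small beside the spread between libraries, except for genes at a few counts. Libraries of 1 group differed by more than sampling noise. Positions and exon lengths came from GENCODE vM21, which matched 23310 of 24421 names.

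Named genes were the 10 members and, per group of further genes, up to 3 called, non-overlapping genes with the largest changes, or else the gene with the lowest adjusted p. A gene of the target list is counted with its list and not reported by itself here. The members, lists and tests were chosen with earlier results of these data known. Alternatives were DESeq2 1.42.0, limma-trend (limma 3.58.1), other scalings and filters, a model of 9 libraries, a replicate block, libraries left out and transcript length. The fits were also run on simulated counts, and the outcome is not reported here. Few genes were changed there, as many higher as lower, unlike the astrocyte comparison.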

Additional observations from a re-analysis of the deposited data

How the results depend on the processing

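The calls after BAL101553 depended most on the libraries. In this comparison 1860 genes were called (1091 higher, 769 lower), and 4306 had an unadjusted p under 0.05. The count was 2832 with DESeq2, 3022 in a model of all 9 libraries and between 1 and 1757 with 1 library left out of 1 or both groups, with 193 without control 3, 458 without control 1, 668 without BAL101553 3 and 1133 without BAL101553 1. Library totals gave 1456 higher and 425 lower. Of the 10 genes, 2 were called, against 4 with DESeq2, with library totals and with the replicate block, and between 0 and 3 with libraries left out. The further pathway genes called numbered 10, and between 0 and 11 with libraries left out. *Tgfb2* reversed in some of these fits (range -0.11 to 0.95), as did *Inhba* (-0.12 to 0.31) and *Tgfbr2* (-0.12 to 0.055, and 0.048 with library totals), none of them called. The cause was not tested.

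It was not stated whether replicate numbers pair the libraries. Deviations of same-numbered libraries correlated by 0.10, 0.0055 and 0.11 between control and BAL101553 and by -0.0096, 0.055 and 0.038 between BAL101553 and astrocytes. Those of differently numbered libraries correlated by -0.15 to 0.053 and by -0.069 to 0.033. With 3 libraries per group, these values cannot decide whether libraries were paired. The replicate block gave 1371 and 12815 genes in the comparisons and called 4 and 9 of the 10 genes, adding *Tgfbr1* (adjusted p = 0.0387) and *Tgfbi* (0.0285) after BAL101553. In the astrocyte comparison, between 7 and 10 of the 10 genes were called.

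For the ligand shares, the difference in *Tgfb2* after BAL101553 lay between -0.767 and 2.28 percentage points with 1 library left out. With the longest transcript as length, the *Tgfb3* difference was 12.4 points after BAL101553, and the astrocyte differences were -6.37 for *Tgfb1* and -31.3 for *Tgfb3*. The shares themselves also moved with this length, and *Tgfb1* rather than *Tgfb3* led in control 1.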
